A study of Drosophila melanogaster with 3 samples.

Results

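The segment polarity genes divide each segment of the fly embryo into anterior and posterior parts. The 10 examined here were the ligand genes hedgehog (hh) and wingless (wg), the receptor gene patched (ptc), the Wingless pathway genes armadillo (arm) and naked cuticle (nkd), and the transcription factor genes engrailed (en), invected (inv), cubitus interruptus (ci), midline (mid) and gooseberry (gsb). Peaks of GAGA factor were assigned to one of them when the summit lay in the gene body or within 10 kb of it. Of the 4900 peaks that passed the authors' reproducibility threshold, called optimal peaks here, 18 met this rule, as did 115 of the 30000 peaks in the authors' pooled list, which also holds background. The optimal list is the top 4900 of the pooled list by signal, so 97 of the 115 peaks stood below the threshold. The 10 genes are among 13945 protein-coding genes of the annotation.

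GAGA factor, encoded by Trithorax-like (Trl), was mapped by ChIP-seq, which sequences the DNA recovered with an antibody from sheared chromatin. The embryos were of the strain Trl-MiMIC-GFP, in which an exon for eGFP inside a Trl intron makes a tagged protein, and an antibody to GFP recovered it. Whole embryos of both sexes, 0 to 24 h old, gave 3 biological replicates of 1 group, with no second genotype, treatment or age. All stages and cell types are mixed in each library, so a peak cannot be placed in the cells that express a segment polarity gene, and a gene bound in few cells cannot be told apart from a gene bound weakly in many. The replicate, pooled and optimal lists were deposited without read totals. The depth behind each peak is therefore unknown, and the authors' signal per peak served mainly for its rank in each list. Its value is shown only in the map of peaks along the genes and for en peak 1 beside the last optimal peak.

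In each segment, cells that make Engrailed secrete Hedgehog, and their anterior neighbours secrete Wingless, and each signal maintains expression of the other. Patched is the Hedgehog receptor and Cubitus interruptus is the transcription factor at the end of that pathway, while Armadillo, the fly β-catenin, carries the Wingless signal into the nucleus and Naked cuticle dampens it. Engrailed, invected, hedgehog and wingless are also known as targets of Polycomb group proteins, which hold genes silent from DNA elements where GAGA factor and the zinc finger protein Pleiohomeotic can bind. GAGA factor recognises runs of alternating G and A, which were searched as GAGAG on both strands, and Pleiohomeotic a core that was searched as GCCAT on both strands, with overlapping matches counted.

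Peaks are numbered within each gene by their rank in the pooled list, from the strongest. The sequences shown are those within 100 bp of 5 summits, read from the reference genome (Release 6, dm6) on the strand of the gene, with GAGAG or CTCTC in capitals. They set the distal peak of mid, the strongest of all 18, beside the promoter peaks of mid and nkd and the strongest peaks of wg and hh, which stayed below the threshold. The mid peak 1 window is chr2L:5476755-5476955 on the plus strand, mid peak 2 is chr2L:5461327-5461527 on the plus strand, and nkd peak 1 is chr3L:19045450-19045618 on the minus strand, ending at the start site. The wg peak 1 window is chr2L:7306912-7307112 on the plus strand, and hh peak 1 is chr3R:23134795-23134995 on the minus strand.
mid peak 1: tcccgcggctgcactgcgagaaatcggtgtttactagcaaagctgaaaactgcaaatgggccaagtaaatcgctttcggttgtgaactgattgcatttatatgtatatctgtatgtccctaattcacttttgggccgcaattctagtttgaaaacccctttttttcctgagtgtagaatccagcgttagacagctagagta
mid peak 2: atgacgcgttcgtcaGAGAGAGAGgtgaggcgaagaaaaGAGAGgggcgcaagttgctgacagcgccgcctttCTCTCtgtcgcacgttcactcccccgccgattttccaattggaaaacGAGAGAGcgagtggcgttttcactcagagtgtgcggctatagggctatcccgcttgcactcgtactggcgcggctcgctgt
nkd peak 1: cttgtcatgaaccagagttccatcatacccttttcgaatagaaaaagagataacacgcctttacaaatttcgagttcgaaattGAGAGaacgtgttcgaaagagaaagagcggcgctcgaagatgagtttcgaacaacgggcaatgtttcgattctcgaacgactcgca
wg peak 1: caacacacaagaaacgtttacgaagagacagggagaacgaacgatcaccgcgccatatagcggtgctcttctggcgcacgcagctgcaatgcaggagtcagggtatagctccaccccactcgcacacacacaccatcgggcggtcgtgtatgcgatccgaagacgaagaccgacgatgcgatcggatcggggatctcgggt
hh peak 1: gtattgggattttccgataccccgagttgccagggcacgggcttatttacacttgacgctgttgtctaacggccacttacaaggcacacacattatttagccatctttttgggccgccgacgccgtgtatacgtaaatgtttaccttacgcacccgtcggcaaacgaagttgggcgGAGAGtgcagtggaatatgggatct

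The 2 mid windows differed: the promoter window held 7 matches to GAGAG and that of the stronger distal peak held 0. The nkd and hh windows each held 1 match and the wg window 0. GC content was 42.8% in the distal mid window and 43.2% in the nkd window, against 57.7% in both the mid promoter and the wg windows and 50.7% in the hh window. These are matches of letters in short windows and do not show which protein bound there.

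Optimal peaks were found at 5 of the 10 genes, with 7 at ptc, 5 at nkd and 2 each at inv, mid and arm, and none at en, gsb, ci, hh or wg. Over all protein-coding genes, 65.0% had at least 1 optimal summit in the gene or within 10 kb. The pooled list placed peaks at all 10 genes, from 3 at gsb and 4 at ci to 26 at ptc and 29 at nkd. Of the pooled peaks at these genes, 15.7% were optimal (18 of 115, exact 95% binomial interval 9.55 to 23.6, counting error only), and 16.3% of the whole pooled list was optimal. The number of peaks differed widely from gene to gene.

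**Figure D1:**
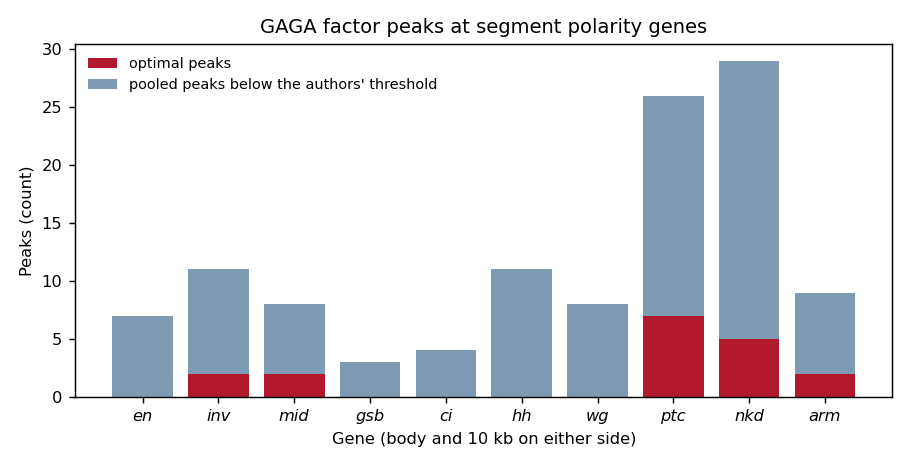
Number of GAGA factor peaks (vertical axis, count) with a summit in each gene or within 10 kb of it, with optimal peaks in red and pooled peaks below the authors' threshold in blue. The receptor gene ptc and the Wingless antagonist gene nkd hold 7 and 5 optimal peaks, and en, gsb, ci, hh and wg hold none.

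A promoter peak, meaning an optimal summit no more than 500 bp from a start site, was present at 4 of the 10 genes (ptc, nkd, inv and mid), and 22.9% of all protein-coding genes had one. The top 4900 peaks of each replicate list gave 5 of the 10 genes every time, though with other members. The 22.9% holds for the optimal list, and the share of all protein-coding genes in these replicate sets is not given here. Promoters of ptc, nkd and inv were in all 3 sets. In replicates 1 and 3 the other two were en and arm, and in replicate 2 they were mid and ci. For mid, en, arm and ci, the place of the promoter in or out of a set therefore changed with the replicate.

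Among the ligands, hh (FBgn0004644, minus strand of 3R, 23128169 to 23141906, dm6) had 11 pooled peaks and no optimal one. The strongest, hh peak 1, covered 23134690 to 23135099 in an intron, 7011 bp downstream of the start site, and stood at rank 6040 of the pooled list. The start site of CG31457 was slightly nearer to its summit, at 6914 bp. This hh peak ranked 4230 in replicate 1, 8545 in replicate 2 and 7886 in replicate 3, so it reached the top 4900 in 1 library. The first optimal peak outside the limit lay 10088 bp from hh, at rank 2431 and 150 bp upstream of Rassf, another gene.

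The gene wg (FBgn0284084, plus strand of 2L, 7307159 to 7316265) had 8 pooled peaks and no optimal one. Its strongest, wg peak 1, covered 7306807 to 7307216, with the summit 147 bp upstream of the start site, at pooled rank 6098. Its ranks were 8924, 5005 and 5447 in replicates 1, 2 and 3, and no replicate placed it in the top 4900. An optimal peak stood just outside the limit, 11017 bp upstream of wg, at 2L from 7295937 to 7296346, and wg was the gene with the nearest start site. That upstream peak ranked 3070 in the pooled list and 4667, 2237 and 3225 in replicates 1, 2 and 3, ahead of wg peak 1 in every library. The neighbouring gene Wnt6, which encodes another Wnt ligand, had an optimal promoter peak at rank 3220.

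The receptor gene ptc (FBgn0003892, plus strand of 2R, 8649649 to 8665223) stood out by number. It had 1.97 optimal peaks per 10 kb of gene and flank, against a median of 0.453 over all protein-coding genes, and 1.13% of genes had as many as 7. Its pooled peaks were also dense, at 7.31 per 10 kb against a median of 2.89, and 1.31% of genes were as dense. One neighbour lies in the ptc window, Acsl, which encodes an acyl-CoA synthetase.

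The strongest peak at ptc, ptc peak 1, was not at the promoter. It covered 8644313 to 8644481, 5237 bp upstream, and ranked 1218, 746 and 957 in replicates 1, 2 and 3 (96.8 ± 0.788 percentile of the replicate lists, SD, n = 3). At the promoter, ptc peak 2 covered 8649339 to 8649748 centred 105 bp upstream of the gene. It ranked 1126, 1048 and 764 (96.7 ± 0.635, SD, n = 3). These 2 peaks were in the top 4900 of every library, and which of them ranked higher changed with the replicate: ptc peak 2 led in replicates 1 and 3 and ptc peak 1 in replicate 2. The upstream peak held 0 matches to GAGAG and the promoter peak 8.

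A second pair lay in introns of ptc. The ranks of ptc peak 3, 4773 bp downstream of the start site, were 2306, 3062 and 1666, and those of ptc peak 5, at 2712 bp, were 6353, 3424 and 2411. Only the first of the pair stayed in the top 4900 of all 3 libraries. The remaining optimal peaks, ptc peaks 4, 6 and 7, lay past the 3′ end of ptc in introns of Acsl, with Acsl as the nearest gene. In replicate 1, ptc peak 7 dropped to rank 17443, against 4582 and 3435 in the others, the widest gap among the 18 peaks. Of the 3, ptc peak 6 held the longest run of alternating G and A at any of the 18 optimal peaks (33 bp, 17 matches to GAGAG), and its ranks were 3110, 5056 and 2512.

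In the Wingless pathway, nkd (FBgn0002945, minus strand of 3L, 19003741 to 19045449) had 5 optimal peaks, and 4.89% of genes had as many. The promoter peak, nkd peak 1, covered 19045313 to 19045722, 69 bp ahead of the start site, at ranks of 1496, 928 and 1525 (95.6 ± 1.12 percentile, SD, n = 3). It was high in all 3 libraries, and its window, shown above, held 1 match to GAGAG. A pair of peaks lay in nkd introns, nkd peak 3 at 20415 bp from the start site with ranks of 3236, 2886 and 3586, and nkd peak 4 at 2668 bp with ranks of 3505, 6856 and 5220. The first kept its place in all libraries and the second was in the top 4900 of replicate 1 alone. The other two optimal peaks belonged by position to neighbours beyond the 3′ end: nkd peak 2 lay in an intron of CG18135, and nkd peak 5 lay 85 bp upstream of CG3808. The nkd gene spans 41709 bp, so its 5 optimal peaks came to 0.81 per 10 kb, against a median of 0.453 over all genes. Its 29 pooled peaks came to 4.70 per 10 kb, and 18.3% of genes were as dense.

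The gene arm (FBgn0000117, minus strand of X, 1891401 to 1900646) had 2 optimal peaks in its window, and neither was nearest to an arm start site. One of these, arm peak 1, lay in the 5′ UTR of Edem1 and ranked 1821, 2704 and 3141, and arm peak 2, 112 bp upstream of trr, ranked 3408, 3397 and 4818. Both were in the top 4900 of all libraries. At an arm start site itself, arm peak 3 lay 5 bp upstream at pooled rank 5424, below the threshold, with ranks of 4867, 8992 and 4589. The window of arm holds 8 other protein-coding genes, the most among the 10, against a median of 5 over all genes.

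The homeodomain gene inv (FBgn0001269, plus strand of 2R, 11474465 to 11509695) had 2 optimal peaks. At the promoter, inv peak 1 covered 11475383 to 11475792, 120 bp upstream of the downstream one of its 2 start sites and in the 5′ UTR of transcripts from the other, and ranked 4262, 4639 and 2197. The second, inv peak 2, lay 4805 bp upstream and ranked 5076, 5898 and 2613. Replicate 3 gave both peaks their highest place, and inv peak 2 was in the top 4900 of that replicate alone. The promoter peak held 8 matches to GAGAG and the upstream peak 2.

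The paralogue en (FBgn0000577, minus strand of 2R, 11524006 to 11528210), the neighbour of inv, had 7 pooled peaks and no optimal one. Its strongest, en peak 1, covered 11528038 to 11528447, with the summit 33 bp upstream of the start site, at pooled rank 5020 and a signal of 84.6, just under the signal of 86.2 at the last optimal peak. It ranked 4140 in replicate 1 and 2374 in replicate 3, and replicate 2 had no overlapping peak among its 30000. The next, en peak 2, lay 1472 bp upstream at pooled rank 5328 and ranked 4192, 4296 and 22930. Each of these peaks was in the top 4900 of 2 libraries and far below or missing in the third, and the library that lacked the promoter peak was not the one that placed the upstream peak low.

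Peaks near the threshold show how even the ranks were elsewhere. Among the 500 pooled peaks that follow the optimal list, 15 (3%) had no overlapping peak in at least 1 replicate list. The SD of the replicate percentile, with a missing peak set to 0, was 51.6 at en peak 1 and 36 at en peak 2, and 2 and 27 of the 500 had an SD at least as large. Both en peaks are themselves among the 500 and are included in these counts, and en peak 2 was picked with its values in view. The SD of en peak 1 rests on the 0 set for its missing peak. These counts are a description and not a test. The median SD was 7.76 in those 500 peaks. The first optimal peak outside the limit lay 13052 bp upstream of en, at 2R from 11541057 to 11541466, with en as the nearest gene. It ranked 2910 in the pooled list and 4570, 2067 and 2756 in the replicates, inside the top 4900 of each library. The region of inv and en therefore held optimal peaks at the inv promoter, upstream of inv and far upstream of en, and en peak 1, 33 bp from the en start site, stood below the threshold. A weaker peak within the en promoter window, en peak 6 at 305 bp, ranked 15811.

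**Figure D2:**
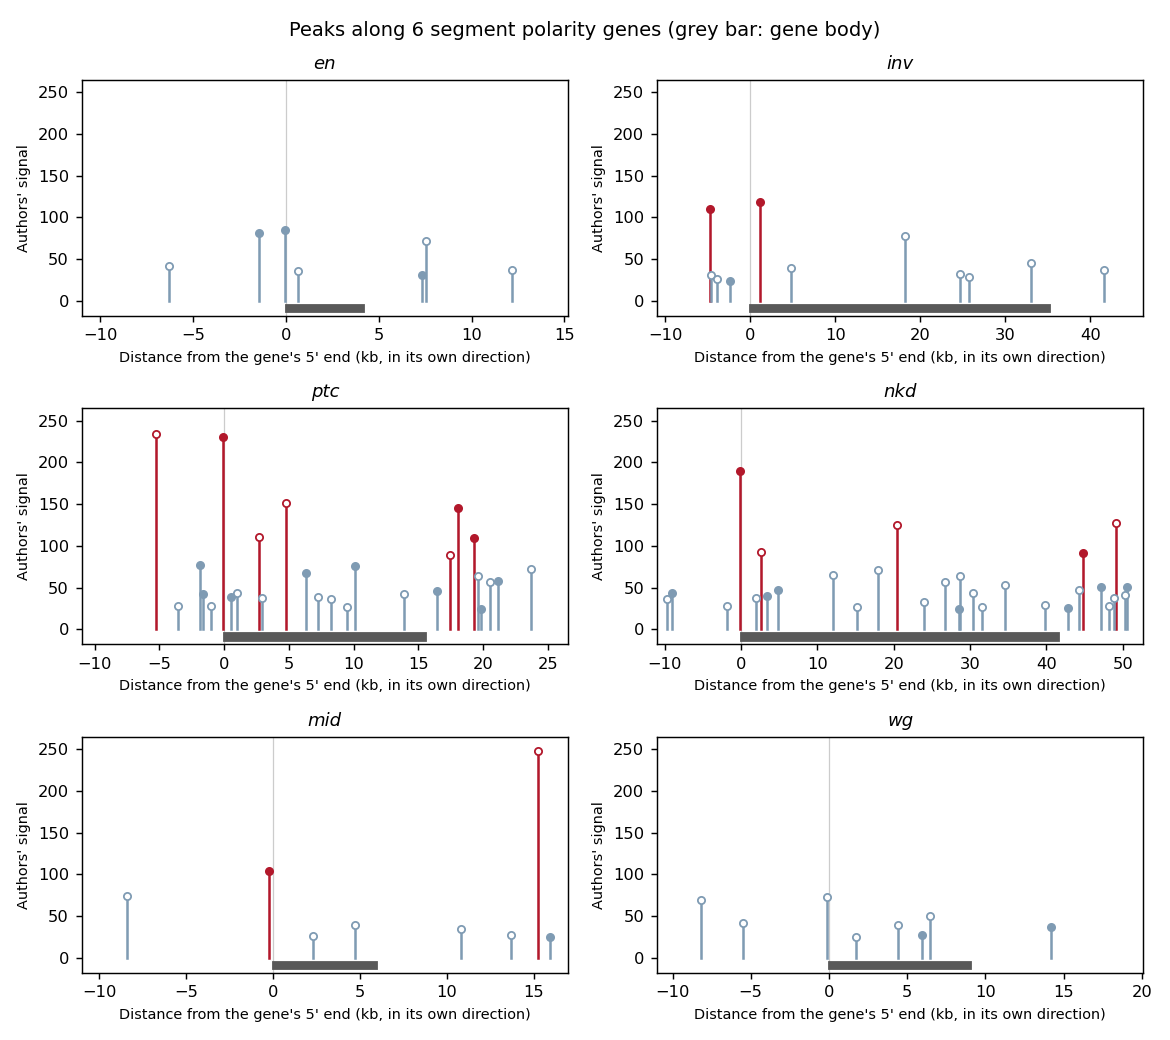
Signal of each pooled peak (vertical axis, the authors' value, scale not stated) against its distance from the 5′ end of the gene (kb, in the direction of the gene) at 6 genes, in red for optimal peaks and blue for those below the threshold. Filled circles mark peaks with GAGAG within 100 bp of the summit, and the highest peak of mid stands 15.2 kb from the 5′ end without one.

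The T-box gene mid (FBgn0261963, plus strand of 2L, 5461639 to 5467610) held the strongest of the 18 optimal peaks. This peak, mid peak 1, covered 5476759 to 5476921, 9245 bp beyond the gene and just inside the 10 kb limit, and mid had the nearest start site, 15216 bp away. It stood at rank 841 of the pooled list and ranked 920, 1093 and 580 in the replicates (97.1 ± 0.87 percentile, SD, n = 3). The promoter peak, mid peak 2, covered 5461222 to 5461631, 212 bp ahead of the start site, at ranks of 5559, 2368 and 5629 (84.9 ± 6.21, SD, n = 3). The distal peak ranked ahead of the promoter peak in all 3 libraries, and the promoter peak was in the top 4900 of replicate 2 alone. As the sequences above show, the weaker of the pair held 7 matches to GAGAG and the stronger 0.

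The remaining transcription factor genes had few or weak peaks. The gene ci (FBgn0004859, minus strand of 4, 47710 to 57041), whose product ends the Hedgehog pathway, had 4 pooled peaks. Its strongest, ci peak 1, lay in the 5′ UTR, 134 bp upstream of a start site, at pooled rank 6349, and ranked 10302, 3676 and 17390, so the libraries did not place it alike. The first optimal peak outside the ci limit, at 10237 bp and rank 809, lay 71 bp upstream of the ribosomal protein gene RpS3A. The paired-box gene gsb (FBgn0001148, plus strand of 2R, 25061964 to 25064643) had 3 pooled peaks, the fewest of the 10, at 1.32 per 10 kb. Its strongest was at rank 24642, with a match in replicate 2 alone, at rank 29829. A missing peak means only that none was listed, not that GAGA factor was absent.

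**Figure D3:**
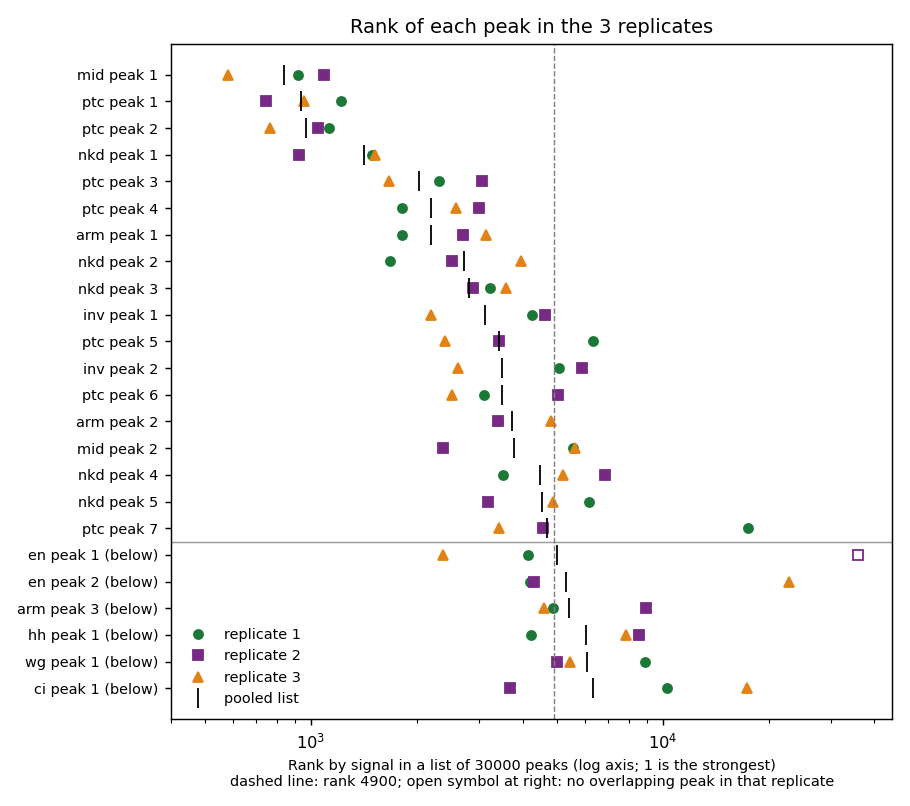
Rank of each peak by signal (horizontal log axis, 1 is the strongest of 30000) in replicates 1 to 3 and, as a vertical tick, in the pooled list, for the 18 optimal peaks and 6 peaks below the threshold. The top 4 peaks stay left of the dashed line at rank 4900 in every library, and en peak 1 has no overlapping peak in replicate 2, drawn as an open square at the right.

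Taken as a set, the 18 optimal peaks had pooled ranks from 841 to 4688, with a median of 2979. The stronger 50% of the optimal list held 7 of the 18 (38.9%, exact 95% binomial interval 17.3 to 64.3). That interval includes 50%. The median percentile in the replicate lists was 89.4, 89.9 and 91.3 in replicates 1, 2 and 3 (90.2 ± 0.985, SD, n = 3), and that of all 4900 was 92.1 or 92.2 in each (92.2 ± 0.0577, SD, n = 3). The members' median was lower in 3 of 3 replicates. The same 18 peaks were ranked each time, in the libraries that also made the pooled list, so these are not independent comparisons. The SD covers the re-ranking of these peaks and not the small number of them. With 3 replicates an exact sign-flip permutation test could not go below a two-sided p of 0.25, so none was run. In all 3 libraries, 11 of the 18 reached the top 4900 (61.1%, exact 95% binomial interval 35.7 to 82.7), against 68.1% of all optimal peaks, which were called from the same libraries. The median SD of the percentile between replicates was 3.28 at these genes and 2.32 over the optimal list.

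The members' peaks below the threshold were present in all 3 replicate lists about as often as all peaks below the threshold. Of the 97, 39 overlapped a peak in all 3 replicate lists (40.2%, interval 30.4 to 50.7), and 37.0% of all peaks below the threshold did. By rank, 27 of the 97 stood in the top 10000 (27.8%, interval 19.2 to 37.9), against 20.3% of all peaks below the threshold. Adjacent pooled peaks can match the same replicate peak, as nkd peaks 2 and 20 did, so these counts are not of independent sites.

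By position, 8 of the 18 optimal summits were in introns, 8 were intergenic and 2 were in 5′ UTRs. Over the whole optimal list, introns held 42.8%, intergenic sequence 39% and 5′ UTRs 13%. A protein-coding start site of any gene lay within 500 bp of 7 of the 18 (38.9%, interval 17.3 to 64.3), against 54.0% of all optimal peaks. The nearest protein-coding start site was that of the member itself for 11 of the 18, made up of 4 at ptc, 3 at nkd and 2 each at inv and mid, and for none at arm. The remaining 7 are counted with these genes by distance and lie nearer to another gene.

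The GAGAG core was within 100 bp of the summit in 8 of the 18 optimal peaks (44.4%, interval 21.5 to 69.2), against 32.6% of all optimal peaks. Below the threshold it was in 28 of 97 (28.9%, interval 20.1 to 39), against 28.2%. Both shares have intervals that include the share of the whole list. The GCCAT core of Pleiohomeotic was in 4 of the 18 (22.2%, interval 6.41 to 47.6), against 28.4% of all optimal peaks, and in 41 of the 97 below the threshold (42.3%, interval 32.3 to 52.7), against 35.8%. A single optimal peak, inv peak 2, held both cores (5.56%), as did 8.84% of the optimal list.

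In some windows GAGAG was repeated. Windows with 6 or more matches, a number chosen after the counts had been seen, occurred at 5 of the 18 optimal peaks and at 5.06% of all 4900. They were inv peak 1 with 8 matches, mid peak 2 with 7, ptc peak 2 with 8, ptc peak 4 with 6 and ptc peak 6 with 17. Of these, ptc peaks 4 and 6 lie in introns of Acsl, which is their nearest gene. Below the threshold, 3 of 97 windows reached 6 matches, against 1.92% of that list, and they were en peak 1 with 7, en peak 2 with 6 and ptc peak 17 with 8. Of the members' optimal peaks with any GAGAG, 5 of 8 held 6 or more matches, and 248 of 1596 did over the optimal list. Below the threshold, 3 of 28 with any GAGAG did, and 483 of 7069 over that list. The strongest promoter peaks of ptc, inv, mid and en were in this class. The other pooled peaks within 500 bp of a member's start site were not: nkd peak 1 held 1 match, arm peak 4 held 2, and wg peak 1, ci peaks 1 and 4, arm peaks 3 and 9 and en peak 6 held 0.

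**Figure D4:**
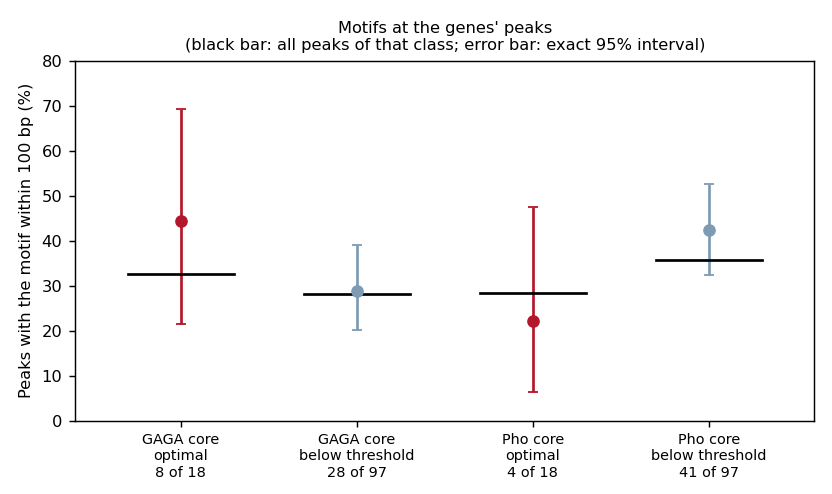
Share of peaks (vertical axis, percent) with the GAGA core or the Pleiohomeotic core (Pho core) within 100 bp of the summit at the 10 genes, for optimal peaks in red and peaks below the threshold in blue, with exact 95% binomial intervals. Black bars mark the share over all peaks of that class, and each lies inside the interval, as 32.6% does between 21.5 and 69.2.

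The promoter sequences were also counted without regard to peaks, from 250 bases before to 50 after each start site, taking the site with most matches where a gene has several. GAGAG was present at 8 of the 10 genes and at 36.3% of all protein-coding genes. There were 10 matches each at en and ptc, a count that 1.15% of genes reached, 9 at inv (reached by 1.46%), 4 at gsb (6.4%) and 3 at mid (9.57%). The counts were 2 at arm, 1 each at ci and nkd, and 0 at hh and wg. This order was not that of the peaks: en and ptc had the same count, with promoter summits at pooled ranks 5020 and 969, and nkd with 1 match had its promoter peak at 1412. The 4 matches at gsb went with no promoter peak in the pooled list.

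A list of 45 other genes of these pathways put the members beside their partners. An optimal promoter peak was present at 19 of the 45 (42.2%, exact 95% binomial interval 27.7 to 57.8), against 22.9% of all protein-coding genes. Of 17 Hedgehog pathway genes 8 had one, of 20 Wingless pathway genes 10 had one, and of 8 paralogues and neighbours of the members 1 had one, Wnt6. For 16 of the 19 the gene's own start site was the nearest to the summit. At least 1 optimal peak lay within 10 kb of 41 of the 45 (91.1%), against the 65.0% given above. The genes of this list were chosen by pathway from general knowledge and no test was run on it. Any start site of a gene counts, and the window grows with gene length. Neither the number of start sites nor the length was matched to all genes.

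Among these promoter peaks, the strongest were at a kinase gene and a corepressor gene. The casein kinase gene gish had one at rank 46, with replicate ranks of 37, 59 and 51, and gro, which encodes the corepressor Groucho, had one at rank 110, with replicate ranks of 131, 122 and 78. The kinase gene sgg, which encodes the fly GSK-3, was at rank 246, and rdx, which encodes a ubiquitin ligase adaptor that acts on Cubitus interruptus, at rank 292. All 4 ranked ahead of every peak of the 10 members in the pooled list. They were followed by CkIalpha at 1492, the glypican gene dlp at 1652, the heparan sulphate polymerase gene sotv at 1721 and the second glypican gene, dally, at 1782. No optimal promoter peak was found at the Hedgehog pathway genes boi, botv, cos and fu or at the Wingless pathway genes arr, Axn, dsh and fz3. The same held for gsb-n, H15, lin and slp1, of which gsb-n and H15 are the neighbours and paralogues of gsb and mid.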

How the data were processed

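The dm6 peak lists of 3 replicates, of their pool and of the optimal set were analysed. Per the deposited text notes, the first 2 kinds include background and were made with a control as input for IDR (irreproducible discovery rate), which set the optimal threshold. Aligner and caller are left as not given in the sources used here. Signal per peak and the summit offset are the authors' deposited values. The lists on dm3 were not used here.

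Summits were placed on Ensembl release 115 genes without transposable elements. Replicate peaks were matched by an overlap of at least 1 bp. A percentile is the share of the 30000 peaks in a replicate list at or below the matched peak, and 0 without a match. Motifs were sought in 201 bp windows. Intervals are exact 95% binomial (Clopper-Pearson) and cover counting error only. The labels call the replicates biological and do not say how they were collected, so part of the spread between them may be technical. The members, pathway list and motifs were chosen with earlier results of these data known. Named were all 10 members, up to 6 optimal peaks of each (ptc peak 7 beyond that) or else the strongest pooled one, peaks beside the limits, the 8 pathway genes with the strongest promoter peak and the first 4 in alphabetical order of each list without one. Other peaks below the threshold (en peaks 2 and 6, arm peaks 3, 4 and 9, ci peak 4, ptc peak 17 and nkd peak 20) were picked with their values in view. Alternatives covered other distance, promoter and motif windows, the stronger 50% of peaks, single replicates and each replicate left out. Python 3.11.15, numpy 2.4.6, pandas 2.3.3 and scipy 1.17.1 were used. The code for window counts, promoter peaks and the motif search was tested on simulated peaks and sequence, and the other steps were not.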

Additional observations from a re-analysis of the deposited data

How the results depend on the processing

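The number of optimal peaks at the members, 18, followed the distance rule: it was 29 within 20 kb, 5 in the gene bodies alone and 11 where a member's own start site had to be the nearest, an alternative added after the data were seen. Pooled peaks moved from 115 to 177 within 20 kb and to 48 in the gene bodies. Of the 4 members with a promoter peak, 1 had it within 100 bp, and of the 45 pathway genes 8 did, in place of 19. The share of all protein-coding genes is not given here for 100 bp or for the stronger 50% of peaks. Whether the pathway genes stay above it at those settings therefore cannot be read from these counts. With the stronger 50% of the optimal peaks alone, 7 peaks stood at the members, and 2 members and 12 pathway genes had a promoter peak. At those 7 peaks the GCCAT share was 0%, the median percentile 95.4, and the share in the top 4900 of all 3 replicates 100%. This setting counts fewer and stronger peaks, and the reason for the GCCAT share was not tested. The other 45 of 58 alternatives kept a count within 1.5 times its value, a share within its exact 95% interval or a percentile within 1 SD. Among them, the GCCAT share went from 22.2% to 44.4% with motif windows of 250 bp on each side, which hold more sequence. The share of all optimal peaks in those wider windows is not given here, and the 28.4% holds for 100 bp. Leaving out a replicate gave median percentiles from 89.7 to 90.6 and shares in the top 4900 of all remaining replicates from 61.1% to 77.8%. The depth is unknown, so peaks near the threshold cannot be set against counting error. No paired analysis was possible because there is 1 group.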
